A study of Rattus norvegicus with 4 samples.

Results

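Of 8 genes of sterol synthesis, 7 could be followed on the arrays of this study: Idi1, Fdps, Fdft1, Sqle, Cyp51, Msmo1 (named Sc4mol in older annotation) and Insig1. They are measured by 19 of the 8740 probe sets, each chosen because the platform annotation gives it a single gene symbol, old or current, that is 1 of the 8. No probe set was paired with Hmgcs1 in that annotation, and this gene is not analysed here. The RNA came from Rat1, an immortalized rat fibroblast line grown in foetal calf serum. Rat1-control cells carried a control retrovirus, and Rat1-Omomer cells carried a retrovirus for Omomer, in which the Myc inhibitor Omomyc is fused to the tamoxifen-responsive oestrogen receptor domain. Both were kept for 48 h in 0.1% serum and harvested either at 0 min, when 10% serum was given back, or 90 min later. All 4 conditions contained 4-OHT, the tamoxifen metabolite that switches Omomer on. The labels place it in the whole starvation period and the methods in the last hours of it, so that the length of treatment is not settled. One characteristic of the Rat1-Omomer 0 min and Rat1-control 90 min samples names the opposite virus. The titles, sources and descriptions name 1 sample for each condition and were followed here. Whether each line was a single clone is not given in the sources used here, and any difference between the lines carries both Omomer and whatever else separates them. The study asked how Omomyc alters the serum response of fibroblasts. With 1 array per condition, no difference has a replicate check and no p was computed.

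Cholesterol is made from acetyl-CoA through mevalonate, which is turned into isoprenoid diphosphates, then squalene, then the ring of lanosterol, and at last cholesterol. Most genes of this route are switched on together by SREBP transcription factors when the membranes of the endoplasmic reticulum are short of sterol. Insig1 holds the SREBP escort protein in that membrane when sterol is plentiful, and Insig1 is itself an SREBP target. Fibroblasts take cholesterol from serum lipoproteins and make their own when serum is scarce.

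Promoter sequences were at hand for 5 of the 7 measured genes, from RefSeq on build GRCr8. The 250 bases before the annotated start are shown for 3 genes that stand for the 3 patterns described below: lower in the serum-treated Omomer line (Idi1), higher after serum in both lines (Msmo1) and higher after serum in the Omomer line (Insig1). Capitals mark matches, on either strand, to CCAAT (the NF-Y box), GGGCGG (the Sp1 box) and CACGTG (the E-box, the site of Myc and Max).
Idi1, chr17:66547525-66547774, minus strand: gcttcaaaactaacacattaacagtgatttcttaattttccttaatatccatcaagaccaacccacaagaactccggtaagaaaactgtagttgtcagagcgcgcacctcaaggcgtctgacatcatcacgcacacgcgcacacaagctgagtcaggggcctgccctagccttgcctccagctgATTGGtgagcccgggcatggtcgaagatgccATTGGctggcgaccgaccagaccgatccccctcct
Msmo1, chr16:29746863-29747112, plus strand: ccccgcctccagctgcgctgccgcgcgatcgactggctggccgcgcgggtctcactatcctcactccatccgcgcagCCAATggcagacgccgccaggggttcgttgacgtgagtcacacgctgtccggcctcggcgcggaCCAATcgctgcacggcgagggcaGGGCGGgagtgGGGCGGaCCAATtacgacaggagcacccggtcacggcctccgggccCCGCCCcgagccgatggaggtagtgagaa
Insig1, chr4:8057770-8058019, minus strand: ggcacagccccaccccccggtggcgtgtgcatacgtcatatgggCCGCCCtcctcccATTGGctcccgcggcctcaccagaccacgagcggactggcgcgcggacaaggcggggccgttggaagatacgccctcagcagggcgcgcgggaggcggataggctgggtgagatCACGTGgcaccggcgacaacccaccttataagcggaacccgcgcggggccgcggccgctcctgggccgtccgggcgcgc

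The E-box of Insig1 lies 79 to 74 bases before the start, and none of the other windows, those of Fdps, Cyp51, Idi1, Msmo1 and the unmeasured Hmgcs1, holds these letters. Of all 33469 promoters in the table, 5.59% hold CACGTG in the same 250 bases. CCAAT was found in 5 of the 6 windows, Cyp51 being the exception, against 34.0% of all promoters. GGGCGG was found in 5 of the 6, Idi1 being the exception, against 30.5%. A loose form of the sterol regulatory element, TCACNCCAC, was in none of the 6 and in 0.974% of all promoters. No match overlapped that of another motif. These are matches of letters in 1 annotated start per gene, and binding was not measured on these arrays.

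**Figure D1:**
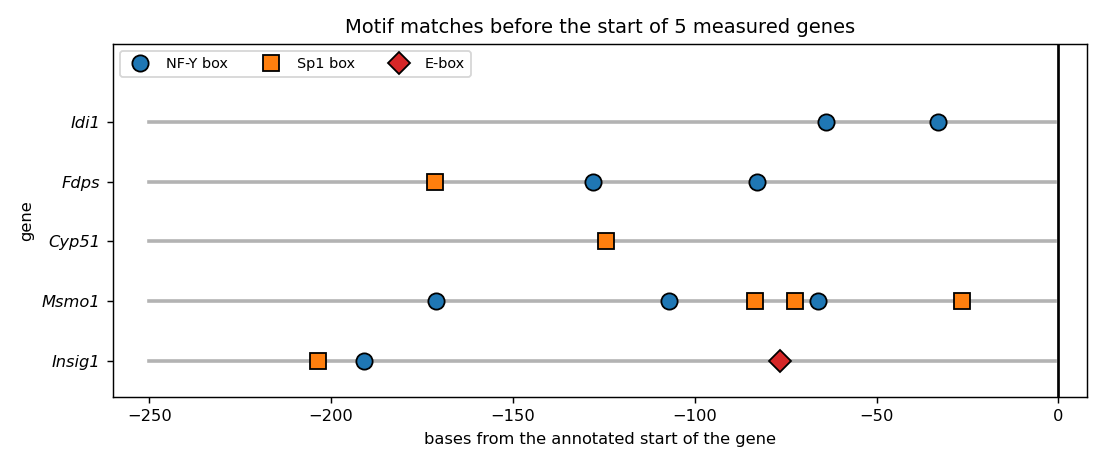
Centres of the motif matches (markers) in the 250 bases before the annotated start of the 5 measured genes with a promoter sequence, in bases from the start (x axis) and by gene (y axis). Msmo1 holds 3 matches to CCAAT and 3 to GGGCGG, and Insig1 holds the E-box.

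The values are average differences, in which the signal of mismatch probes has been taken from that of perfect match probes. They are linear and can fall below 0. A floor of 1048, which is 2 times the noise SD estimated from all values below 0, was set under every value before a ratio was taken. A value at the floor gives a bound, and a probe set under the floor on both arrays has no ratio. Of the 19 probe sets, 13 lay above the floor on all 4 arrays, 2 lay under it on all 4, and 17 were above it at least once. Ratios from the Omomer 90 min array scattered more. Among 389 genes with several probe sets that passed the floor on every array, the SD between the log2 ratios of probe sets of the same gene was 0.73 for this array against either 90 min control or its own 0 min array, and 0.31 for the control line between 90 and 0 min. On this array, 29.6% of the probe sets in 5 series of expressed sequence tags (IDs starting with rc_AA79, rc_AA80, rc_AA85, rc_AA87 or rc_AA89; they were grouped once their values were known) were lower by 3-fold or more than at 0 min, against 3.70% of all others. None of the 19 probe sets belongs to these series. The series were not left out of the SD above, and their part in it was not tested. Of 16 fibroblast marker genes measured, 13 were above the floor on all arrays, among them Col1a1, Vim and Thy1, whereas Dcn, Lum and Pdgfrb were under it throughout. Summed fibroblast marker values ranged from 824386 to 1081452, and those of epithelial markers, with Krt8, Krt18 and Epcam under the floor throughout, from 530 to 973. Sums of endothelial markers ranged from 226 to 1073 and of adipocyte markers from 803 to 1350. Those of hepatocyte markers ranged from 5479 to 9875 and of macrophage markers from 6668 to 12146. Of 4 macrophage marker genes measured, 1 was above the floor on all arrays, and Csf1r and Lyz2 were under it throughout. The part of these small sums in the results below was not tested. In a culture, fewer cells and less RNA per cell cannot be told apart.

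Idi1 and Sqle, an enzyme before and an enzyme after the squalene step, had their lowest values on the Omomer 90 min array. Idi1, which interconverts the isoprenoid building blocks, had an average difference of 7716 in the control line and 7113 in the Omomer line at 0 min, 11353 in the control line at 90 min and 2171 in the Omomer line at 90 min by its brighter probe set (AF003835_at). After serum the value was thus 1.47-fold higher in the control line and 3.28-fold lower in the Omomer line, each over its own 0 min array. The other Idi1 probe set (rc_AI045395_at) lay between -37 and 110 on all arrays and gives no ratio, so that this gene rests on a single probe set.

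Sqle, squalene epoxidase, adds oxygen to squalene and is a slow step of the route. Its only probe set (D37920_at) had 15177 in the control line and 11551 in the Omomer line at 0 min, 15747 in the control line at 90 min and 3244 in the Omomer line at 90 min. The first 3 values lie close together and the last stands apart. The control line was 1.04-fold higher after serum, whereas the Omomer line was 3.56-fold lower. At 90 min the Omomer line was 4.85-fold lower than the control line for Sqle and 5.23-fold lower for Idi1. Both values on the Omomer 90 min array lie above 1228, the floor that the noise of that array alone would set.

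Fdps makes farnesyl diphosphate, the branch point between sterols and the lipid anchors of proteins. Its brightest probe set (M89945mRNA_at) had 16007 in the control line and 17475 in the Omomer line at 0 min, and 11006 and 16114 at 90 min. The second probe set from the same sequence (M89945mRNA_g_at) had 14409 and 15320 at 0 min, and 9356 and 11018 at 90 min. The last (rc_AI180442_at) had 4931 and 5625 at 0 min, and 3651 and 5615 at 90 min. The control 90 min array was the lowest of the 4 for all 3 probe sets. The serum-treated control line was 1.35-fold to 1.54-fold lower than at 0 min, and the Omomer line was lower by at most 1.39-fold.

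Fdft1, squalene synthase, joins a pair of farnesyl groups into squalene and was near the noise. Its 4 probe sets lay between -1632 and 2049, and none was above the floor on all 4 arrays. The highest value, 2049 in the Omomer line at 0 min (M95591_g_at), stood against 299 in the control line at 0 min, at least 1.95-fold higher, while the companion from the same sequence (M95591_at) was under the floor on both arrays with 473 and 6. The 2 probe sets from another sequence (rc_H33426_at and its companion rc_H33426_g_at) were also higher in the Omomer line at 0 min, 1.31-fold by the first and at least 1.27-fold by its companion. After serum, the 3 probe sets with a ratio in the Omomer line were all lower, 1.54-fold by M95591_g_at and at least 1.43-fold and 1.27-fold by the other two. In the control line 2 had a ratio, 1.09-fold higher and at least 1.11-fold higher.

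Cyp51, the lanosterol demethylase, was measured by 5 probe sets that differed in direction. In the control and Omomer lines, AB004096_at had 3602 and 3023 at 0 min, and 3188 and 5666 at 90 min. For rc_AA997614_s_at these values were 5342, 4344, 3964 and 8502, and for rc_AA963449_s_at 4943, 5848, 5586 and 10212, in the same order. These 3 had their highest value in the Omomer line at 90 min, 1.75-fold to 1.96-fold over the 0 min array of the same cells and 1.78-fold to 2.14-fold over the control line at 90 min. The brightest (U17697_s_at) went the other way, with 9267, 8711, 9371 and 7116, which put the Omomer line 1.32-fold lower at 90 min. The last (rc_AI230255_at) lay below 0 on all arrays, between -4366 and -1514.

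Msmo1 removes methyl groups from the sterol ring after the step of Cyp51, and was the gene of the group whose measurable probe sets were all higher after serum in both lines. Its brighter probe set (rc_AI172293_at) had 18766 in the control line and 19361 in the Omomer line at 0 min, and 39755 and 62802 at 90 min. The other (E12625cds_at) had 8428 and 8364 at 0 min, and 21885 and 16603 at 90 min. Both 90 min arrays were above both 0 min arrays for either probe set. The control line was 2.12-fold and 2.60-fold higher after serum, and the Omomer line 3.24-fold and 1.99-fold higher. Which line was higher at 90 min depended on the probe set, with the Omomer line 1.58-fold higher by the first and 1.32-fold lower by the other.

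Insig1, the sterol-dependent brake on SREBP, was higher after serum on the Omomer 90 min array. Its first probe set (L13619_at) had 12339 in the control line and 10091 in the Omomer line at 0 min, and 11949 and 27147 at 90 min. The other (L13619_g_at) had 12051, 9913, 12815 and 27405 in the same order. The 3 other arrays spanned 9913 to 12815, and the Omomer 90 min array was more than 2-fold above them for both. The Omomer line was 2.69-fold and 2.76-fold higher at 90 than at 0 min, against 1.03-fold lower and 1.06-fold higher in the control line. Both probe sets come from the same sequence entry and are not independent measurements.

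**Figure D2:**
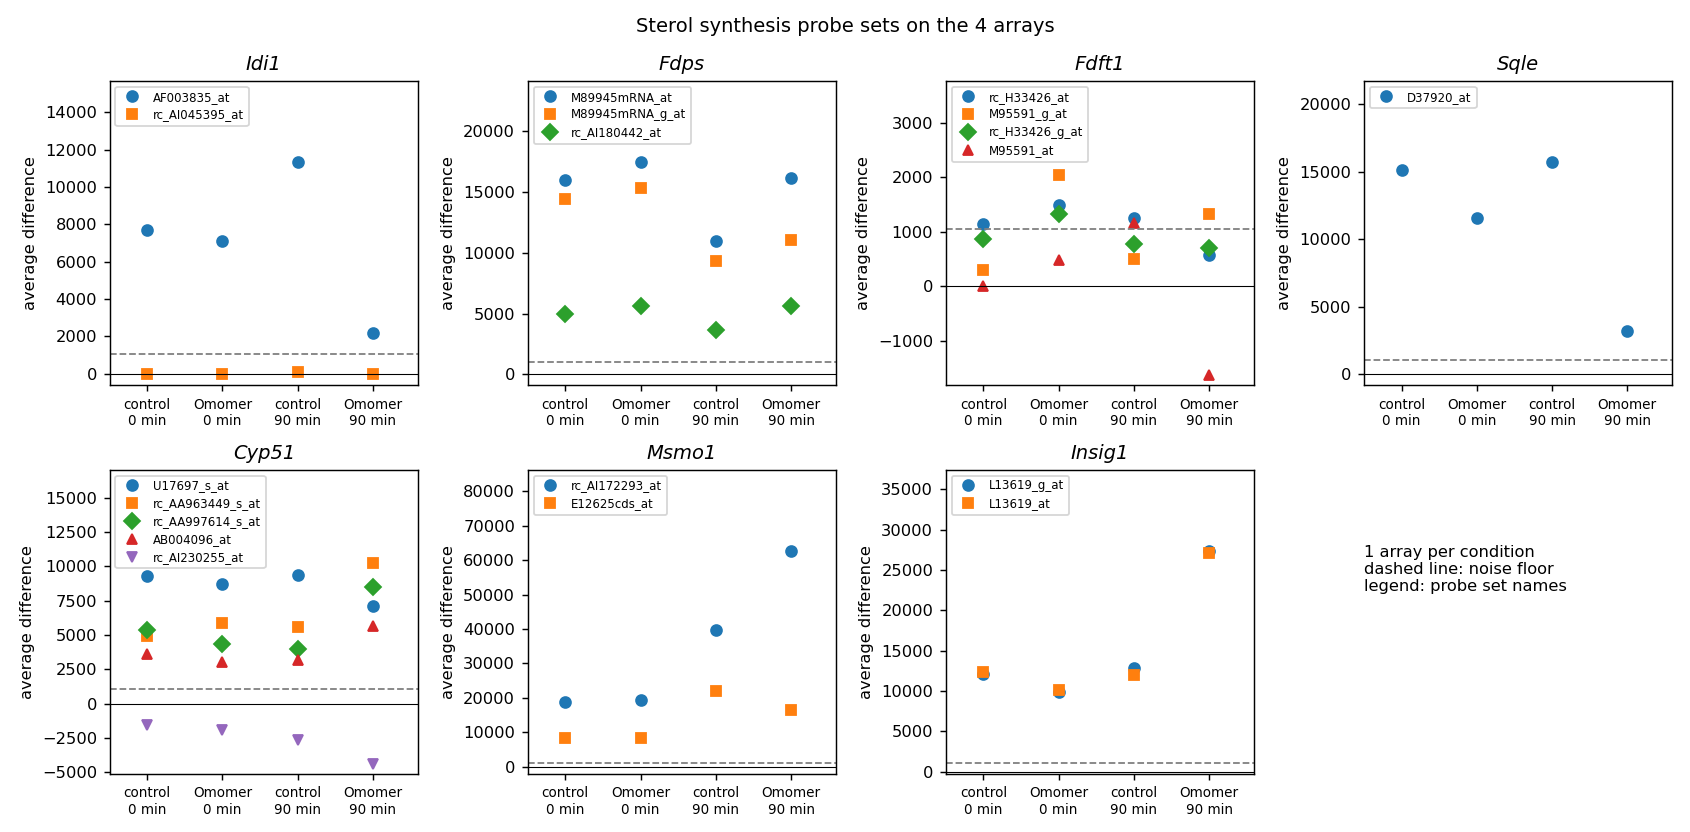
Average difference (y axis, linear) of the 19 probe sets on the 4 arrays (x axis, 1 array per condition), with 1 panel per gene, a marker for each probe set and the noise floor of 1048 dashed. On the Omomer 90 min array Idi1 and Sqle are low, with 2171 and 3244, and Insig1 is high, with 27147 and 27405.

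Before serum, no sterol synthesis probe set differed 3-fold between the lines. Of 16 with a ratio, 8 were higher and 8 lower in the Omomer line, with a median log2 ratio of 0.02 against 0.01 for all 3977 probe sets with a ratio. Across those, 0.251% were higher by 3-fold or more and 0.503% lower by as much. Sqle was 1.31-fold lower and Insig1 1.22-fold lower in the Omomer line, and Idi1 1.08-fold lower. The SD between probe sets of the same gene was 0.29 in this comparison, and the bound for Fdft1, 0.97, was the one value of the 16 past 2 times that SD.

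In the control line most of the group was close to its starved level after serum. None of 15 probe sets was past 3-fold in either direction, where 1.93% of all 3985 were higher by 3-fold or more and 1.81% lower by as much. The 2 probe sets of Msmo1 were the ones higher by 2-fold or more, with log2 ratios of 1.08 and 1.38, and no other value was past 2 times the SD of 0.31 between probe sets of the same gene. The nearest to that limit were Fdps at -0.62, Idi1 at 0.56 and Fdps at -0.54, while the last probe set of Fdps was at -0.43. The median was 0.05, against -0.07 for all probe sets.

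In the Omomer line the group spread out after serum, with 1 of 16 probe sets higher by 3-fold or more (Msmo1) and 2 lower by as much (Idi1 and Sqle) relative to 0 min. Of all 4209 probe sets 2.90% were higher by 3-fold or more and 9.65% lower by as much, and outside the 5 tag series, where all of the group lies, 3.55% and 3.70%. Log2 ratios ran from -1.83 for Sqle to 1.70 for Msmo1, with a median of -0.06, against 0.09 for all probe sets and 0.23 for those outside the tag series. Past 2 times the SD of 0.73 were Idi1, Sqle, the brighter probe set of Msmo1 and 1 of the 2 of Insig1, whose 1.47 lay just above the limit of 1.46. The other probe set of Insig1, at 1.43, lay just under it. After quantile normalization Msmo1, at 1.26, and Idi1, at -1.56, were no longer past 3-fold, and Sqle, at -1.79, was. Relative to the control line at 0 min, the reference of the study, 1 of 15 was higher by 3-fold or more and 2 were lower by 3-fold or more, against 2.80% and 9.95% of all 4220 and 3.38% and 4.36% of those outside the tag series. These were again Msmo1 (3.35-fold higher), Sqle (4.68-fold lower) and Idi1 (3.55-fold lower). This comparison shares an array with each of the others that contain the control line at 0 min or the Omomer line at 90 min.

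**Figure D3:**
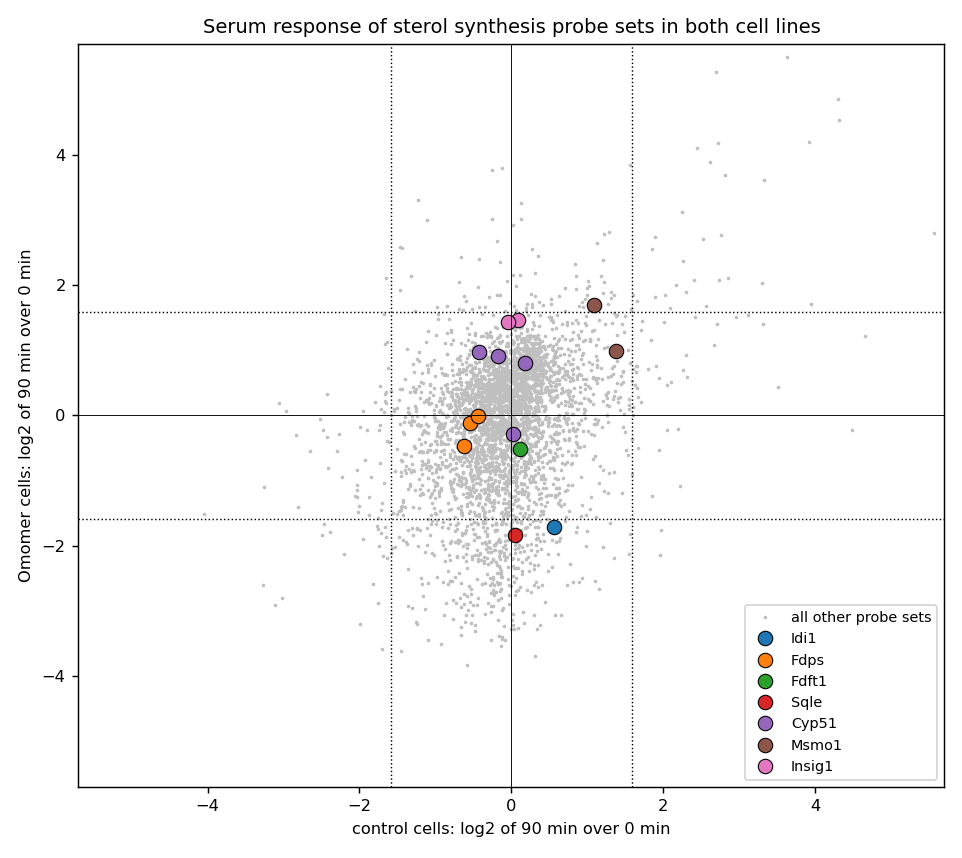
Log2 ratio of 90 min over 0 min in the control line (x axis) and the Omomer line (y axis) for all probe sets with both ratios (grey, 1 array per condition) and for those of the sterol synthesis genes (coloured), with dotted lines at 3-fold. Msmo1 lies to the right of and above 0, Insig1 above 0 near the middle of the x axis, and Sqle and Idi1 below the lower dotted line.

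At 90 min, directly between the lines, 2 of 16 probe sets were lower by 3-fold or more in the Omomer line, Idi1 at -2.39 and Sqle at -2.28 on the log2 scale, and none was higher by 3-fold or more. Across all 4048 probe sets, 2.22% were higher by 3-fold or more and 8.57% lower by as much, or 3.30% lower outside the 5 tag series. The 2 genes were the ones past 2 times the SD between probe sets of the same gene. Insig1 (2.14-fold and 2.27-fold) and 1 probe set of Cyp51 (2.14-fold) were higher by 2-fold or more in the Omomer line, where 10.1% of all probe sets were higher by 2-fold or more. Fdps was 1.18-fold to 1.54-fold higher by its 3 probe sets. The median of the group was 0.45, against 0.18 for all probe sets and 0.32 for those outside the tag series, and 10 of the 16 were above 0. With only the brightest probe set of each gene it was -0.25, so that its sign depended on the choice of probe sets. For Cyp51 the brightest is the one that was lower in the Omomer line.

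The serum responses of both lines, each over its own 0 min array, can be set against each other without a shared array. The log2 response of the Omomer line minus that of the control line was -2.27 for Idi1 and -1.89 for Sqle, and 1.38 and 1.47 for Insig1. For Cyp51 it was 1.08, 1.40 and 0.63 by the 3 probe sets that were higher and -0.31 by the brightest, for Fdps 0.15 to 0.43, and for Msmo1 0.61 and -0.39. These differences were not tested, since each rests on 4 single arrays.

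Most other enzymes of the route were slightly lower after serum in the control line. Of the genes listed for it, 10 besides those above have probe sets, 17 in all. In the control line after serum 12 of 13 with a ratio were lower than at 0 min, none 3-fold, with a median log2 ratio of -0.46, against -0.07 for all probe sets. Dhcr7, which makes cholesterol in the last step, was 2.34-fold and 1.67-fold lower. In the Omomer line the median was -0.20 against 0.09 for all probe sets, and 2 of 15 were lower by 3-fold or more, where 9.65% of all probe sets were. Both measure Acat2, the thiolase that begins the route. By its brighter probe set Acat2 had 12510 in the control line and 11932 in the Omomer line at 0 min. At 90 min it had 8209 in the control line and 1330 in the Omomer line, 6.17-fold lower. The last value is close to 1228, the floor of that array alone. By the other probe set Acat2 was at least 4.10-fold lower between the lines at 90 min. Both probe sets of Acat2 belong to the tag series, of which 29.6% were lower by 3-fold or more on the Omomer 90 min array than at 0 min. The part of the series in these values was not tested. Mvd, which makes isopentenyl diphosphate, had 2944 and 2969 at 0 min, and 2573 and 1346 at 90 min in the control and Omomer lines. Its last value is also close to the floor of that array alone. Ebp, a sterol isomerase, had 3084 and 2681 at 0 min, and 2157 and 820 at 90 min, at least 2.06-fold lower in the Omomer line at 90 min. Dhcr7 was 1.97-fold and 2.26-fold higher in the Omomer line than in the control line at 90 min. Hsd17b7, at least 1.80-fold, and Mvk, at least 1.35-fold by its brighter probe set, were higher on the Omomer 90 min array than on any other, where they were under the floor. The other probe set of Mvk was under the floor on all arrays and lowest on the Omomer 90 min array, with -1202. Acat1, the mitochondrial thiolase, differed by at most 1.53-fold between the lines at 90 min, Lbr, a sterol reductase of the nuclear envelope, was 1.03-fold lower after serum in the control line and at least 1.39-fold lower in the Omomer line, and Lss, which closes the ring of lanosterol, was 1.12-fold higher at 90 min in the Omomer line by its brightest probe set and 1.64-fold lower by another.

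**Figure D4:**
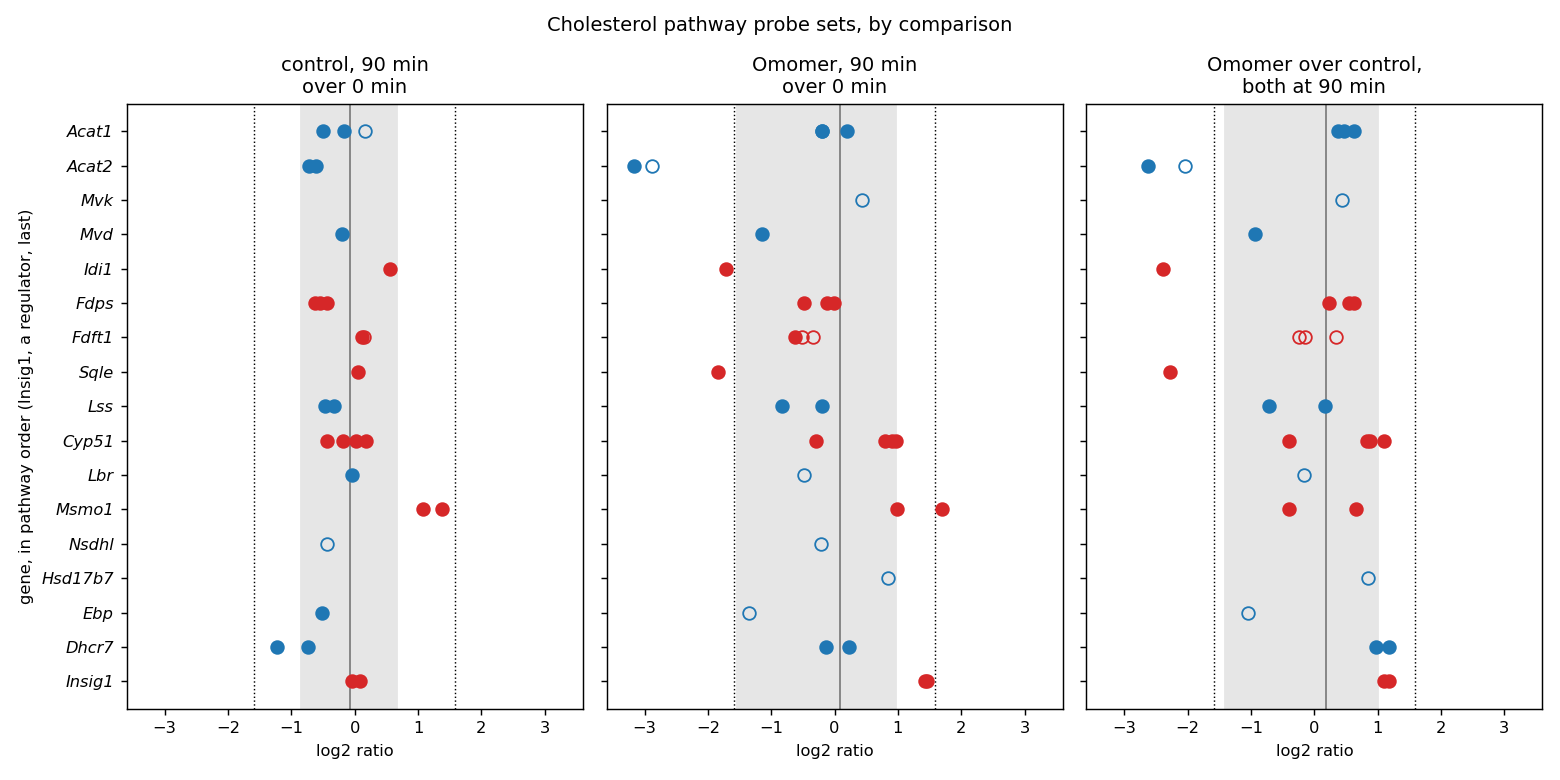
Log2 ratios (x axes) of the probe sets of cholesterol pathway genes in the order of the route (y axis), for serum in the control line, serum in the Omomer line and the Omomer over the control line at 90 min. Red points are the sterol synthesis genes followed here and blue points the other enzymes, open points are bounds, the grey band spans the 10th to the 90th percentile of all probe sets, the grey line their median and dotted lines 3-fold. Acat2, Idi1 and Sqle lie to the left of the dotted line on the right panel.

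Of the genes that sense sterol or feed electrons to these enzymes, 6 have probe sets, and Srebf1, encoding an SREBP, lay below 0 on all arrays. Pgrmc1, a heme protein that binds Cyp51, had 4724 in the control line and 4535 in the Omomer line at 0 min, 3499 in the control line at 90 min and 1240 in the Omomer line at 90 min, 3.66-fold lower than before serum. The last value is close to 1228, the floor of that array alone. Por, the reductase that supplies electrons to Sqle and Cyp51, was 1.28-fold higher after serum in the control line and 1.82-fold in the Omomer line by its brightest probe set, while another was 1.36-fold higher and 1.40-fold lower. Cyb5r3, a further electron donor, was 1.15-fold lower and 1.57-fold higher, and Cyb5b, its membrane partner, 1.54-fold and 1.65-fold lower, each by the brightest probe set. In this list 1 of 11 probe sets was 3-fold lower after serum in the Omomer line, and none was past 3-fold in the control line. That much lower in the Omomer line were 9.65% of all probe sets and 3.70% of those outside the tag series, where this list lies.

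The genes with profiles most like the mean of the group over the 4 arrays were Oas1a, Rps15, Rpl39, Pcolce and Ssb, with root mean square distances of 0.03 to 0.05 on the log2 scale. The mean was taken over the brightest probe sets of the 6 genes above the floor on all arrays. It is nearly flat, and the distances of the 6 genes themselves to it ran from 0.09 for Cyp51 over 0.41 for Fdps to 0.80 for Sqle. Cyp51 was thus the one gene of the 6 close to the mean, by its brightest probe set. Its other probe sets above the floor were higher after serum in the Omomer line, with log2 ratios of 0.80, 0.97 and 0.91. These did not enter the mean.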

How the data were processed

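1 Affymetrix rat genome GeneChip was hybridized per condition. The deposited values are intensities, average differences that the authors computed with Microarray Analysis Suite 4 at its default settings and scaled between arrays. They are linear, and 24.8% to 27.7% of the values on an array were below 0. Arrays have no read depth, and precision is limited by their number. Of 8799 probe sets, 59 manufacturer controls were left out. Of the other 8740, 7006 had a single symbol in the platform annotation, 308 several and 1426 none.

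The noise SD was 1.4826 times the median size of the values below 0, or 524. Values under 2 times this SD were raised to 1048, and log2 ratios were taken for 5 comparisons. The threshold of 3-fold and the reference array follow the methods of the study. Calls were tested on simulated data with 5-fold changes. Such changes lie past the threshold of 3-fold by design. The test therefore checks the calculation only, and cannot show how reliable a call near 3-fold is on these arrays. The spread of a ratio was taken as the SD between probe sets of the same gene. Motifs were searched in the 250 bases before each start. Python 3.11.15, numpy 2.4.6 and pandas 2.3.3 were used.

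The genes, lists, motifs and alternatives were chosen with earlier results of these data known. Named were all probe sets of the sterol synthesis genes, the 5 genes of most similar profile, every gene of 5 lists past 3-fold in any comparison, and the 2 highest and 2 lowest of each list after serum in each line. Other items of the rule are not reported here. Lss, Mvd and Srebf1 were added after their values were seen. Marker lists of 6 cell types were checked. Alternatives were another floor, scaling, threshold and choice of probe sets. No test between conditions was possible.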

Additional observations from a re-analysis of the deposited data

Results flagged for a closer look

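A probe set of Acsl4 (D85189_at), an acyl-CoA synthetase of the fatty acid list, went opposite ways in the 2 lines after serum. Its value was 2.74-fold higher at 90 than at 0 min in the control line and 2.27-fold lower in the Omomer line, a difference of -2.64 on the log2 scale that was not tested. A brighter probe set of the same gene (rc_AI236284_s_at) was 3.03-fold higher in the control line and 3.59-fold higher in the Omomer line. No probe set of the sterol synthesis genes was at least 1.5-fold higher in 1 line and at least 1.5-fold lower in the other, but Idi1 narrowly missed this with 1.47-fold higher and 3.28-fold lower. With median scaling Idi1 met it, at log2 ratios of 0.64 and -1.63.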

How the results depend on the processing

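The low values of Idi1 and Sqle and the high value of Msmo1 in the Omomer line at 90 min kept their direction under every floor and scaling tried. Quantile normalization left 0 probe sets higher by 3-fold or more in the Omomer line at 90 min over either 0 min array, and 1 lower by 3-fold or more over their own 0 min array. With the floor halved to 524, 1 probe set, of Fdft1, was higher by 3-fold or more in the Omomer line at 0 min. With the floor doubled to 2096, the median of the group after serum in the Omomer line was 0.80 over 13 probe sets, which leaves out those near the noise. At a threshold of 2-fold, 2 probe sets were higher after serum in the control line, 3 after serum in the Omomer line, 4 in the Omomer line at 90 min over the control line at 0 min, and 3 between the lines at 90 min, where 5.45%, 9.19%, 10.1% and 10.1% of all probe sets were. With 1 probe set per gene, the median of the Omomer over the control line at 90 min changed sign, from 0.45 to -0.25. That of the Omomer line at 90 min over the control line at 0 min went from 0.35 to -0.13. Between the lines at 0 min it went from 0.02 to -0.09. The medians nearer to 0 also changed sign in places: after serum in the Omomer line the median was 0.03 with median scaling and 0.40 without the ratios that are bounds. The remaining counts moved by less than 1.5 times, and all medians but that with the floor doubled by less than the SD between probe sets of the same gene. Of single ratios, 8 moved by more than that SD, all of Fdft1 with the floor halved. Leaving out the 5 tag series changed nothing for these genes, which have no probe set there. No paired analysis was possible because each condition has 1 array and the labels give no replicate numbers. Fdft1, 1 probe set of Idi1 and 1 of Cyp51 were limited by signal over background.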

Other observations

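Genes of fatty acid synthesis and activation, which SREBP factors also control, were lower after serum in part of the list. Scd2, a fatty acid desaturase, had 14298 in the control line and 12876 in the Omomer line at 0 min, and 5132 and 15125 at 90 min, by its brightest probe set (rc_AA875269_at, of the tag series). Its other probe sets with a ratio were lower after serum in the control line, by 2.21-fold and 2.28-fold and by at least 1.99-fold and 2.52-fold, and ranged from 1.10-fold higher to at least 4.25-fold lower in the Omomer line. Slc25a1, the citrate carrier, was 3.28-fold lower in the control line after serum. In the Omomer line it went from 3673 to 1019, which is under the floor, and was at least 3.50-fold lower. Acly, which splits citrate into acetyl-CoA, was 1.02-fold higher in the control line and 1.68-fold higher in the Omomer line by its brightest probe set, while another (L27075_g_at) was 1.56-fold lower in the Omomer line and a further one (J05210_at) 1.10-fold lower in the control line. Acsl1, an acyl-CoA synthetase, was 1.94-fold higher and at least 1.39-fold lower by its brightest, and 1.40-fold and 1.12-fold lower by another. Elovl5, a fatty acid elongase of the tag series, was 6.51-fold lower in the Omomer line after serum and 1.11-fold lower in the control line. Me1, malic enzyme, was at least 3.56-fold lower in the Omomer line by 1 probe set and 1.26-fold lower by its brightest. In the list 1 of 24 probe sets was higher by 3-fold or more and 1 lower by as much after serum in the control line, and 1 and 4 of 24 in the Omomer line. Of all probe sets 1.93% were higher and 1.81% lower by that much in the control line, and 2.90% and 9.65% in the Omomer line. Outside the tag series these shares were 2.16% and 1.76% in the control line, and 3.55% and 3.70% in the Omomer line.

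Among genes of cholesterol uptake, transport and storage, Nr1h2, a sterol-sensing nuclear receptor, went from 6194 to 1854 after serum in the control line, 3.34-fold lower, and from 4867 to 4150 in the Omomer line. Lipa, the lysosomal lipase, was 1.99-fold lower and 1.12-fold higher by its brightest probe set. Its other probe sets were lower in both lines, in the Omomer line by 1.20-fold and by at least 1.31-fold. Cav1, the caveolin that binds cholesterol, was 1.92-fold and 2.21-fold higher, and Apoe, an apolipoprotein, 1.35-fold and 2.33-fold higher. Dbi, an acyl-CoA binding protein, was 1.14-fold lower in the control line and 5.35-fold lower in the Omomer line, and Lrpap1, a receptor chaperone, 1.30-fold and at least 3.07-fold lower by its brightest probe set, whereas 3 others of Lrpap1 in the Omomer line differed by at most 1.08-fold or were at least 1.29-fold lower. In this list 1 of 18 probe sets was lower by 3-fold or more after serum in the control line and 2 of 16 in the Omomer line. The same shares of all probe sets were 1.81% and 9.65%. Outside the tag series, where these lower probe sets lie, they were 1.76% and 3.70%. Of users of farnesyl and geranylgeranyl groups, 4 of 10 probe sets had a ratio and none was past 3-fold. Rabggtb was 1.31-fold and 1.78-fold higher after serum in the control and Omomer lines, Fnta went from 5054 to 3412 and from 4871 to 5964, Fntb was 1.28-fold lower and 1.10-fold higher, and Coq3 at least 1.20-fold lower and 1.14-fold lower.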
